A study of Ipomoea batatas with 18 samples.

Results

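The subject here is a set of 78 root transcripts of sweetpotato (Ipomoea batatas) that were higher at 100 days than at 30 days of age in both of 2 cultivars. They were chosen from 46840 unigenes, the transcripts of a de novo assembly, by their levels in FPKM (fragments relative to transcript length and to the size of the library). On the log2(FPKM + 1) scale, all 3 libraries at 100 days had to lie above all 3 at 30 days in each cultivar separately, the mean had to be at least 1 higher, and the mean over all 18 libraries had to reach 2 FPKM. The difference between 100 and 30 days is therefore the criterion of choice, and nothing is read from its size or its calls. The 6 libraries at 65 days entered the rule only through the limit on the mean level and carry the comparisons.

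The high-starch cultivar was Chuanshu 218 and the low-starch cultivar 15-94, each sampled as roots of 30, 65 and 100 days, with 3 libraries for each cultivar and age. Roots were grown singly in greenhouse pots under natural light, and no other treatment is labelled. The labels do not tie a library to a plant, so the p-values measure only how far these libraries differ, and part of that can be technical. Starch class and cultivar coincide, and differences between cultivars cannot be told apart from differences of starch class.

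A storage root forms when a young root thickens. A vascular cambium adds rings of parenchyma, the cells fill with starch granules, and storage proteins are laid down beside the starch. In sweetpotato the best known of these proteins are sporamin and a beta-amylase, both of which are known to build up as the root swells. The file does not pair the unigene IDs with gene names, and 0 IDs matched the gene table of assembly IBA_r1.0, so no role can be given to any member and the tissue could not be checked against marker genes. IDs are printed for 2 members, and the others are called by their rank in mean FPKM at 65 days.

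Of the 22589 unigenes with a mean of at least 2 FPKM, 820 met the rule in high-starch roots and 823 in low-starch roots. The 78 members were 9.51% of the high-starch list and 9.48% of the low-starch list, whereas 3.63% and 3.64% of all unigenes at that level were in the lists of the high-starch and low-starch cultivars. The 2 lists rest on different libraries, and no test was made of their overlap. The mirror of the rule, lower at 100 days in both cultivars, was met by 90 unigenes. Opposite directions were rare: 7 unigenes were higher at 100 days in high-starch roots and lower in low-starch roots, and 7 showed the reverse. The members just inside the limit on the change differed by 1.01 (log2) each in the cultivar with the smaller change, and the unigenes just outside it by 0.999 and 0.992. At the limit on the level, the members just inside averaged 2.002 and 2.19 FPKM, and the unigenes just outside 1.39 and 1.38 FPKM.

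The libraries differed in depth. The number of reads is not given, but low FPKM values come in multiples of the worth of 1 read, and this worth, relative to the library where it was lowest, ran from 0 to 1.21 (log2) in high-starch and from 0.71 to 1.99 in low-starch libraries. By age it averaged 0.59 ± 0.61, 0.54 ± 0.41 and 0.36 ± 0.12 at 30, 65 and 100 days in high-starch roots and 1.48 ± 0.53, 0.87 ± 0.20 and 1.03 ± 0.14 in low-starch roots (SD, n = 3 each). A larger value means a shallower library if no further scaling was applied. Among the members, 19 were listed at 0 in at least 1 library of 30 days, and 15 of the 78 were at 0 in low-starch 30 d replicate 1, the shallowest library. The part of depth in the low levels at 30 days was not tested. In replicate 3 of the low-starch 65 d and 100 d groups, the 10 most abundant unigenes held 25.8% and 40.5% of all FPKM (elsewhere no more than 17.3%).

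Members spanned from 2.002 to 14198 FPKM in their mean over the 18 libraries, with a median of 20.3 FPKM. The median of all 22589 unigenes at that level was 11.2 FPKM. Abundant transcripts were frequent among the members: 19 of 78 (24.4%) averaged 100 FPKM or more, where 7.41% of the 22589 did. Of these 19, 17 belonged to one run of IDs. A stretch of 28 consecutive ID numbers held 18 of the 78 members, called the ID block below, a grouping made after the values were seen. Members of the block averaged from 38.6 to 14198 FPKM, with a median of 806 FPKM. The 60 members outside it had a median of 10.7 FPKM, and 2 of them averaged 100 FPKM or more. How the assembly numbered its unigenes is not stated. Whether neighbouring IDs are copies of 1 gene family or pieces of the same transcripts, between which reads could be split, is not stated either, so the 18 are not counted as independent observations.

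**Figure D1:**
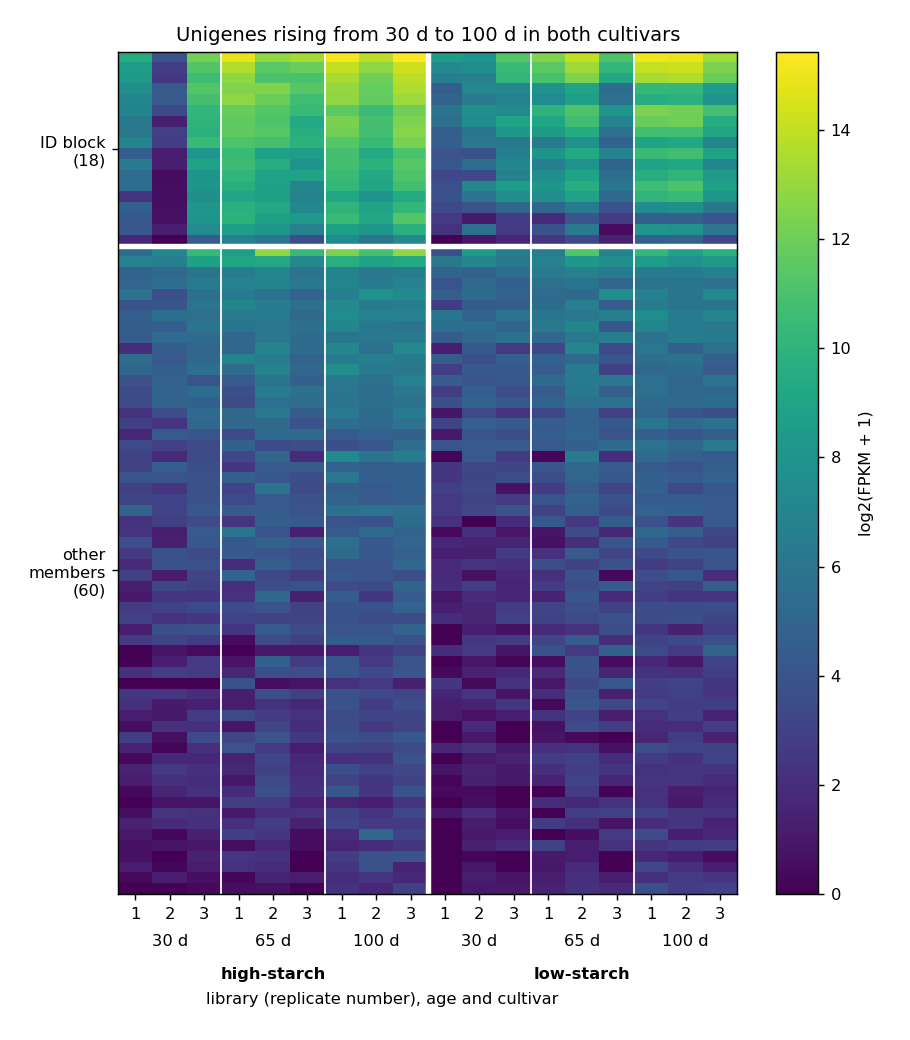
Level of each of the 78 members (rows, most abundant at 65 d on top within each part) in the 18 libraries (columns, 3 replicates for each cultivar and age), as log2(FPKM + 1) by colour. The upper 18 rows are the ID block, which is darkest in high-starch 30 d replicate 2 and far brighter in replicate 3 of the same group.

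Together the members took 1.04% ± 1.45, 5.17% ± 1.90 and 11.0% ± 5.05 of the FPKM at 30, 65 and 100 days in high-starch roots, and 0.389% ± 0.336, 2.44% ± 2.58 and 6.02% ± 3.61 in low-starch roots (SD, n = 3 each). Of the low-starch libraries, replicate 3 was the lowest at both later ages, with 0.520% at 65 days against 1.44% and 5.38% in the others, and 1.87% at 100 days against 8.38% and 7.82%. In whole roots, fewer cells of a type and less RNA per cell cannot be told apart. The block made up most of this. At 65 days the block took 6.78%, 4.23% and 2.92% in high-starch replicates 1, 2 and 3 and 1.34%, 4.85% and 0.404% in low-starch replicates 1, 2 and 3. The ranges of the cultivars overlap. At 30 days the high-starch libraries were far apart, with 0.228%, 0.0131% and 2.38% of the FPKM in the block. High-starch 30 d replicate 3 thus lay just below the lowest high-starch library of 65 days, while replicate 2, the deepest library of all, held almost none of these transcripts. The 60 other members took 0.183%, 1.12% and 0.264% at 65 days in high-starch roots and 0.0959%, 0.525% and 0.116% in low-starch roots.

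The most abundant member at 65 days, Iba_37901, had 757, 15.3 and 4802 FPKM at 30 days, 29334, 7754 and 10224 FPKM at 65 days and 38361, 15451 and 43935 FPKM at 100 days in high-starch roots. In low-starch roots it had 369, 277 and 2499 FPKM at 30 days, 5712, 16704 and 2175 FPKM at 65 days and 34364, 32765 and 10063 FPKM at 100 days. All high-starch libraries of 65 days lay above those of 30 days, whereas in low-starch roots 1 library of 65 days, replicate 3, lay below the highest library of 30 days. The cultivars overlapped at each age. At 65 days the high-starch minus low-starch difference was 1.16 (log2, SE 1.48, limma adjusted p = 0.72). It was 0.44 without low-starch 65 d replicate 3 and ran from 0.44 to 1.91 without single libraries.

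The second in rank, Iba_37875, followed the same course at a lower level. It had 379, 6.22 and 2443 FPKM at 30 days, 13055, 2894 and 3811 FPKM at 65 days and 16369.6, 7238 and 19655 FPKM at 100 days in high-starch roots. In low-starch roots it had 152, 191 and 1332 FPKM at 30 days, 2864, 9509.6 and 1194 FPKM at 65 days and 17395, 19389 and 5359.8 FPKM at 100 days. Within each group its libraries stood in the same order as those of Iba_37901 in all but the 30- and 100-day groups of the low-starch cultivar. Its cultivar difference at 65 days was 0.72 (log2, SE 1.48, limma adjusted p = 0.84). It was 0.0062 without low-starch 65 d replicate 3 and ran up to 1.502 without other single libraries.

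The member of rank 3 had 330.2, 4.66 and 1576 FPKM at 30 days, 7182, 2107 and 2007 FPKM at 65 days and 11025, 4329 and 14711 FPKM at 100 days in high-starch roots. In low-starch roots it had 100.0, 102 and 1199.5 FPKM, 1973, 5546 and 623 FPKM and 10682, 12537 and 3761 FPKM at the same ages. Its cultivar difference at 65 days was 0.72 (log2, SE 1.49, limma adjusted p = 0.84), and -0.084 without low-starch 65 d replicate 3. The libraries of the cultivars overlapped at each age for the first 3 members.

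The members of rank 4 and 5 belong to the same ID block but were called different between cultivars. Rank 4 had 195, 19.3 and 2529.7 FPKM at 30 days, 5811, 5702 and 2675 FPKM at 65 days and 8083, 3532 and 12381 FPKM at 100 days in high-starch roots. In low-starch roots it had 22.3, 143 and 148 FPKM, 243, 516 and 41.9 FPKM and 1242, 1208 and 365 FPKM at the same ages. At 65 and 100 days all high-starch libraries lay above all low-starch ones. Rank 5 had 146, 19.8 and 1861 FPKM, 7182, 3975 and 1608 FPKM and 7572, 3332 and 9089.8 FPKM at 30, 65 and 100 days in high-starch roots, against 29.1, 79.8 and 109 FPKM, 183, 414 and 50.7 FPKM and 779, 966 and 229.5 FPKM in low-starch roots. Their differences at 65 days were 4.67 (log2, SE 1.28, limma adjusted p = 0.025) and 4.503 (SE 1.17, adjusted p = 0.019). Neither call held without low-starch 65 d replicate 3, where the differences were 3.65 (limma adjusted p = 0.15) and 3.70 (adjusted p = 0.11).

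The member of rank 6 lies outside the block and had another order of libraries. It had 42.4, 145 and 1359 FPKM at 30 days, 414, 7021 and 1295 FPKM at 65 days and 5339.6, 1863 and 7796 FPKM at 100 days in high-starch roots. In low-starch roots it had 12.5, 372 and 97.4 FPKM, 92.5, 2419 and 116 FPKM and 1169, 452 and 918 FPKM at the same ages. Replicate 2 was the highest library at 65 days in both cultivars, and the libraries of 65 days overlapped those of 30 days in both. Its cultivar difference at 65 days was 2.39 (log2, SE 1.41, limma adjusted p = 0.34). It ran from 1.299 to 3.896 without single libraries and was 1.71 without low-starch 65 d replicate 3.

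**Figure D2:**
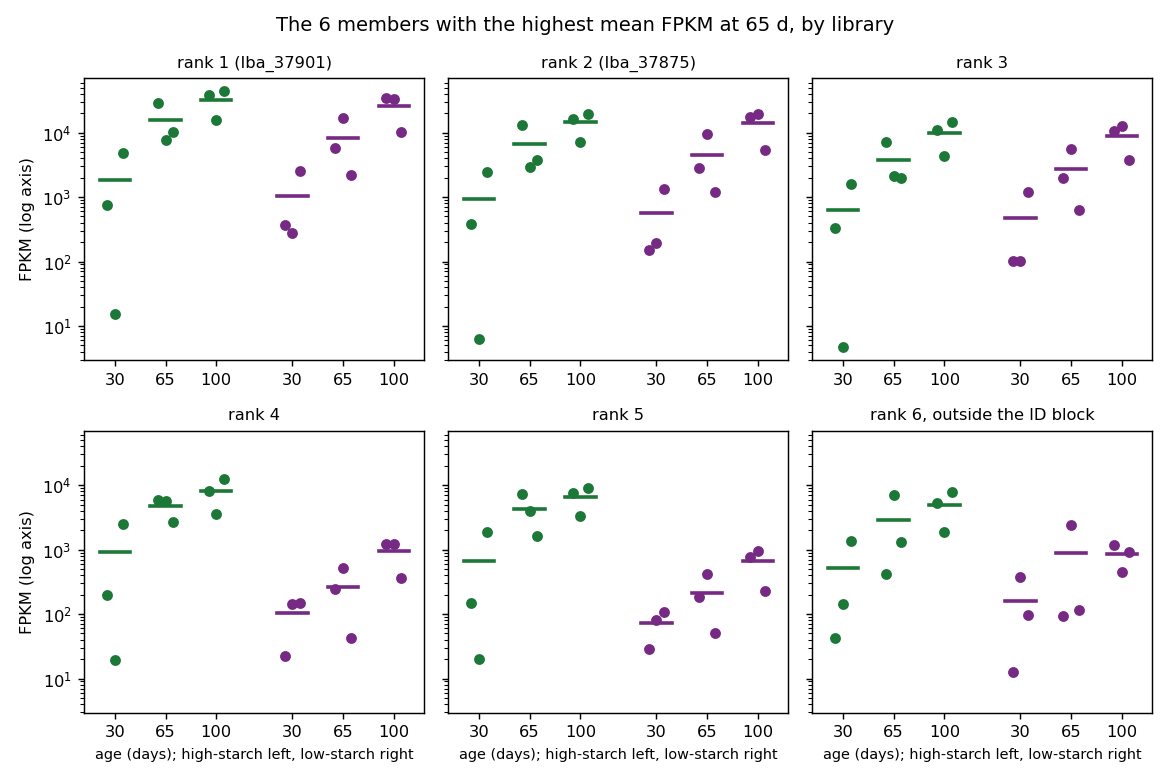
FPKM (log axis) of the 6 members with the highest mean at 65 d, by age in days, with high-starch libraries on the left of each panel and low-starch libraries on the right. Points are libraries (n = 3) and bars are group means; ranks 4 and 5 are lower in low-starch roots at 65 and 100 d, while ranks 1 to 3 overlap between cultivars at each age.

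On the log2(FPKM + 1) scale, the 65-day mean was placed on the way from the 30-day to the 100-day mean, with 0 for the level at 30 days and 1 for that at 100 days. The median position over the 78 members was 0.59 in high-starch roots (quartiles 0.35 and 0.77) and 0.63 in low-starch roots (quartiles 0.39 and 0.92). Members are not replicates, so these values describe the set. Taken library by library, the median position was 0.59, 0.84 and 0.39 in high-starch replicates 1, 2 and 3 and 0.44, 1.02 and 0.34 in low-starch replicates 1, 2 and 3. The spread between libraries of 1 group was thus wider than the difference between cultivars. Without replicate 2 of 65 days the medians were 0.37 in high-starch and 0.41 in low-starch roots. In each cultivar the rule set all 30-day libraries below all of 100 days. A 65-day mean between them, at a middling position, is thus favoured by the choice of members and shows no steady rise by itself. Means of log2 values at 65 days lay between those of 30 and 100 days in both cultivars for 61 of 78 members. They exceeded those of 100 days for 2 members in high-starch roots and 16 in low-starch roots, and lay below those of 30 days for 1 member in high-starch roots and 0 in low-starch roots. With means of the FPKM values themselves, an alternative chosen after the values were seen, the median position was 0.43 in high-starch and 0.70 in low-starch roots, 50 of 78 members lay between in both cultivars, and the 65-day mean exceeded that of 100 days for 6 members in high-starch and 25 in low-starch roots.

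The block and the other members had different medians, which were not tested against each other. In the block the median was 0.81 in high-starch roots and 0.41 in low-starch roots, and all 18 had the larger position in high-starch roots. In the 60 others it was 0.49 in high-starch roots and 0.73 in low-starch roots, and 17 of 60 had the larger one in high-starch roots. The scale changed these medians: with means of FPKM the block stood at 0.45 in high-starch and 0.21 in low-starch roots, again larger in high-starch roots for all 18, and the others at 0.42 in high-starch and 0.90 in low-starch roots. The block's high-starch mean was thus past the midpoint on the log2 scale and short of it in FPKM. By library, the block stood at 0.97, 0.81 and 0.63 in high-starch replicates 1, 2 and 3 and at 0.48, 0.85 and -0.09 in low-starch replicates 1, 2 and 3, so that the cultivars overlapped. Without low-starch 65 d replicate 3 the block's low-starch median was 0.66, and without replicate 2 it was 0.18. The others stood at 0.24, 0.86 and 0.34 in high-starch roots and 0.41, 1.17 and 0.61 in low-starch replicates. Without replicate 2 of 65 days their medians were 0.23 in high-starch roots and 0.47 in low-starch roots.

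**Figure D3:**
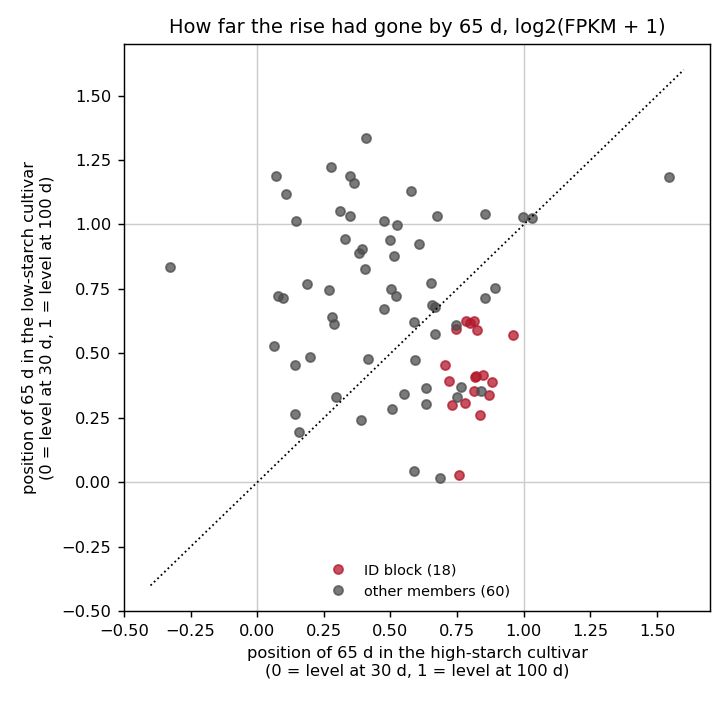
Position of the 65-day mean between the means of 30 d (0) and 100 d (1) on the log2(FPKM + 1) scale, for each of the 78 members, in high-starch roots (horizontal axis) and low-starch roots (vertical axis). The dotted line marks equal positions; the 18 members of the ID block lie below it, around medians of 0.81 and 0.41, and most other members lie above it.

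The test that fits this question sets 65 days against the midpoint of 30 and 100 days, a contrast that in a balanced design is uncorrelated with the difference between 100 and 30 days used by the rule. Differences were called by limma where they were at least 2-fold with a Benjamini-Hochberg adjusted p under 0.05 over the 32529 unigenes tested. Limma called 0 of the 78 members, all of which were tested, in high-starch roots, low-starch roots, their mean and the difference between cultivars, where 0% of all unigenes were called. At an unadjusted p under 0.05, 1 member lay above the midpoint in high-starch roots (2.49% of all unigenes), 4 in low-starch roots (4.26%) and 2 in the mean (3.45%). For the difference between cultivars, 3 members of the 60 outside the block had a negative value at an unadjusted p under 0.05 (2.47% of all unigenes), and 0 of the 18 in the block had either sign. The block's median for this difference was 1.89 (log2) with a median SE of 1.65, and that of the others was -0.40 with a median SE of 0.77. The rule favours members whose spread at 30 and 100 days is small relative to their change, and this spread also enters these standard errors. In the block the spread itself was large: its mean level had an SD of 3.63 (log2) over the high-starch libraries of 30 days.

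Successive ages share libraries with the rule, so their counts are descriptive. From 30 to 65 days, limma called 0 members in either cultivar and 0 in their mean, where 0% of all unigenes were called in either direction. At an unadjusted p under 0.05, 24 members were higher at 65 days in high-starch roots, all 18 of the block among them, where 1.81% of all unigenes were. In low-starch roots 28 were, 4 of them in the block, where 6.86% of all unigenes were, and 50 were in the mean of both (4.91%). From 65 to 100 days the calls were also 0 in each cultivar and in the mean, and 13 members were higher at 100 days at an unadjusted p under 0.05 in high-starch roots (2.96% of all unigenes) and 6 in low-starch roots (1.08%), with 16 in the mean of both (1.68%). The median difference from 30 to 65 days was 4.41 (log2) in high-starch roots and 1.496 in low-starch roots for the block. For the others it was 0.72 in high-starch roots and 1.16 in low-starch roots. From 65 to 100 days it was 1.10 in high-starch and 1.9998 in low-starch roots for the block, and 0.80 in high-starch and 0.35 in low-starch roots for the others. The block's value of 4.41 depends on high-starch 30 d replicate 2. Its mean (log2) was 5.94, 1.96 and 9.21 in replicates 1, 2 and 3 there, and 11.0, 10.1 and 9.05 at 65 days. As shares of FPKM the block averaged 0.875% and 4.65% at 30 and 65 days in high-starch roots, and 0.315% and 2.20% in low-starch roots.

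The separation of the libraries was also counted without a model. These counts, too, share the libraries of 30 or 100 days with the rule, which favours upward separation in both steps. An excess over all unigenes is in part built into them, and they are descriptive only. In high-starch roots, all 3 libraries of 65 days lay above all 3 of 30 days for 12 members, 8 of them in the block, where 2.23% of the 22589 unigenes showed this. In low-starch roots 18 members did, 2 of them in the block, against 9.71% of all. All 3 libraries of 100 days lay above all 3 of 65 days for 15 members in high-starch roots, 0 of them in the block (6.46% of all), and for 6 in low-starch roots, 1 of them in the block (2.83% of all). High-starch 30 d replicate 3 lay below all 65-day libraries for 14 members, against 53 for replicate 1 and 48 for replicate 2. Without that library limma called 5 members higher at 65 than at 30 days in high-starch roots and 3 in the mean of both, and the rule itself would have found 151 members, 76 of them among the 78. Without low-starch 30 d replicate 2 it would have found 197, 75 of them among the 78, and 149, 136 and 148 without high-starch 30 d replicate 2, high-starch 100 d replicate 2 and low-starch 100 d replicate 2. A rule of no overlap is easier to meet with 2 libraries than with 3.

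The rule's own contrast is given for its size. From 30 to 100 days the median difference over the members was 1.72 (log2) in high-starch roots and 1.66 in low-starch roots, with a range of 1.01 to 6.25 in high-starch and of 1.03 to 5.17 in low-starch roots. In the block the medians were 5.33 in high-starch roots and 3.77 in low-starch roots, and 17 of 18 had the larger difference in high-starch roots. This order depends on the log2 scale, where the block's mean was only 1.96 in high-starch 30 d replicate 2. As shares of FPKM, the block averaged 0.875% at 30 days and 10.2% at 100 days in high-starch roots. In low-starch roots it averaged 0.315% and 5.80%, and the ratio of these shares was the larger one. In the other members the median differences were 1.51 (log2) in high-starch and 1.55 in low-starch roots. Since the members were chosen by this contrast, its counts are no evidence about them and are listed only to complete the comparisons. Limma called 0 members in high-starch roots (0% of all unigenes) and 0 in low-starch roots (0.0246% of all), while 63 members in high-starch roots (3.71% of all) and 60 in low-starch roots (4.31% of all) were higher at an unadjusted p under 0.05. In the mean of both cultivars it called 3 (0.00922% of all), the members ranked 11, 33 and 78, and 10 with the expression filter raised to 5 FPKM. Without high-starch 30 d replicate 3 the mean called 26 and the high-starch cultivar 16, and without low-starch 30 d replicate 2 the mean called 21. It called 0 without replicate 1 of 30 d or of 100 d in either cultivar or without replicate 3 of 100 d in either, and 1 without high-starch 65 d replicate 1 or 2, high-starch 100 d replicate 2, low-starch 65 d replicate 1 or low-starch 100 d replicate 2.

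Members of the block moved together from library to library. High-starch 65 d replicate 1 was the highest of its group for 18 of 18, low-starch 65 d replicate 2 for 18 of 18 and high-starch 30 d replicate 3 for 18 of 18. In the remaining groups it was high-starch 100 d replicate 3 for 17 and low-starch 30 d replicate 3 for 16. At low-starch 100 d it was replicate 2 for 14 and replicate 1 for 4. SDs over all libraries of a cultivar include the change from 30 to 100 days by which members were chosen, and do not separate movement within a group. Over the 9 high-starch libraries the block's mean ran from 1.96 to 11.8 on the log2(FPKM + 1) scale, an SD of 3.14. Each member's distance from that mean had a median SD of 0.43. Over the 9 low-starch libraries the SD of the mean was 2.03 and the median SD of the distances 0.66. The largest SD of a distance was 0.91 in high-starch and 1.56 in low-starch libraries, where the members moved together less closely. Across the other 60 members the SD of the mean and the median SD of the distances were 0.83 and 0.66 in high-starch roots and 0.81 and 0.66 in low-starch roots. Their highest library at 65 days was replicate 2 for 40 of 60 in high-starch roots and 41 of 60 in low-starch roots. Replicate 2 was the deepest of the high-starch libraries at 65 days but not of the low-starch ones, where replicate 3 was slightly deeper, and the part of depth in this order was not tested.

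The 10 unigenes of the same ID stretch that were not members are given for comparison. Of these, 3 were at or near 0 FPKM throughout. Of the other 7, 5 met the rule in low-starch roots only and 2 in high-starch roots only. The most abundant of them averaged 4112, 19316 and 22293 FPKM at 30, 65 and 100 days in high-starch roots and 471, 1304 and 5582 FPKM in low-starch roots. It missed the rule because high-starch 30 d replicate 3, at 11913 FPKM, lay above 100 d replicate 2, at 10321 FPKM. Another averaged 137, 591.5 and 1013 FPKM at 30, 65 and 100 days in high-starch roots and 2.51, 0.923 and 1.06 FPKM in low-starch roots. Without high-starch 30 d replicate 3, 23 of the 28 would have met the rule.

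**Figure D4:**
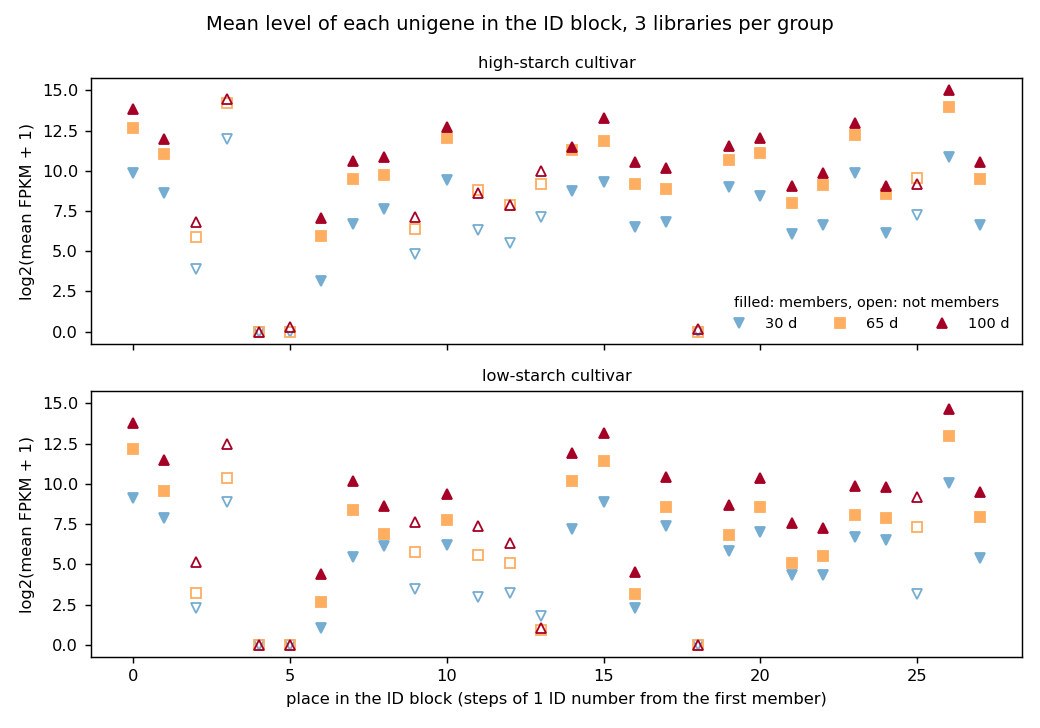
Mean level, as log2(mean FPKM + 1) over 3 libraries, of the 28 unigenes of the ID stretch at 30, 65 and 100 d in high-starch roots (top) and low-starch roots (bottom). Filled symbols are the 18 members and open symbols the 10 other unigenes, 3 of which are at or near 0 throughout; the order of the levels along the stretch differs between cultivars.

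Between cultivars, the comparison at 65 days uses libraries that entered the rule only through the mean level. Limma called 6 of 78 members (7.69%) higher in high-starch roots, where 6.19% of all unigenes were called, and 1 lower (4.03% of all). Of the 6, the 5 in the block were those ranked 4, 5, 10, 18 and 33, and the other was ranked 64. The member ranked 64 had 8.37, 14.3 and 4.71 FPKM at 65 days in high-starch roots, against 0.79, 0.32 and 0 FPKM in low-starch roots (difference 2.81, SE 0.63, limma adjusted p = 0.0075). Its low-starch means were 0.35, 0.37 and 3.19 FPKM at 30, 65 and 100 days. It thus reached the limit of 2 FPKM only through high-starch libraries, and its call is descriptive. The largest difference was that of the member ranked 18, in the block, which had 1021, 417 and 310.4 FPKM at 65 days in high-starch roots, against 2.64, 15.8 and 5.44 FPKM in low-starch roots. Its difference was 6.12 (log2, SE 1.17, limma adjusted p = 0.0022). It had 17.7, 0.59 and 249.8 FPKM at 30 days and 1395, 619 and 2486 FPKM at 100 days in high-starch roots, and 4.98, 1.21 and 5.65 FPKM and 23.9, 25.04 and 16.7 FPKM in low-starch roots. The cultivars were separate at 65 and 100 days and overlapped at 30 days. The one lower member, ranked 56, had 0, 1.08 and 1.06 FPKM at 65 days in high-starch roots, against 13.5, 4.8 and 26.2 FPKM in low-starch roots (difference -3.02, SE 0.68, limma adjusted p = 0.0071). Without low-starch 65 d replicate 3 it was -2.497 and no longer called (limma adjusted p = 0.051). High-starch means of this member were 0.41, 0.71 and 4.07 FPKM at 30, 65 and 100 days. It reached the limit of 2 FPKM only through low-starch libraries, so its call is descriptive as well.

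The share of members called higher at 65 days, 7.69%, was near the 6.19% of all unigenes only when the members were pooled. It was 27.8% in the block, whose members are not independent, and 1.67% in the others. The share called lower was 1.28%, against 4.03% of all. At an unadjusted p under 0.05, 14 members were higher (14% of all) and 4 lower (9.23% of all). Those ranked 64 and 69, among the higher, reached the limit of 2 FPKM only through high-starch libraries. Those ranked 56, 74 and 78, among the lower, did so only through low-starch libraries. These counts, and those of separate libraries that follow, are therefore descriptive. All 3 high-starch libraries lay above all 3 low-starch libraries for 12 members (13.2% of the 22589 unigenes), 9 of them in the block, and below them for 2 (11.2% of all). Without low-starch 65 d replicate 3 limma called 3 higher and 0 lower, without low-starch 65 d replicate 1 it called 3 higher and 2 lower, and without high-starch 65 d replicate 1 or 2 it called 2 higher. Without low-starch 30 d replicate 1 it called 2 lower. The members ranked 18 and 64 were called in each of the 29 settings run, and the member ranked 56 in 28. Those ranked 4, 5, 10 and 33 were called in 24, 25, 15 and 8 of the 29. The median difference at 65 days was 0.61 (log2) over the members and 0.09 over all unigenes tested. It was 2.43 in the block, where all 18 values were above 0, and 0.22 in the others.

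At 30 days limma called 0 members higher and 0 lower in high-starch roots, where 4.25% and 2.90% of all unigenes were called. At an unadjusted p under 0.05, 7 members were higher (12.3% of all) and 1 was lower (7.61% of all). All 3 high-starch libraries lay above all 3 low-starch ones for 5 members (10.7% of all) and below them for 2 (9.09% of all). The block's median difference was -0.02 (log2), with 9 of 18 above 0 and values from -2.27 to 2.14, and that of the others was 0.67. By library, the block's mean on this scale was 5.94, 1.96 and 9.21 in high-starch replicates 1, 2 and 3. In low-starch replicates it was 4.46, 5.59 and 6.97, so only high-starch replicate 2 lay below all of these. As a share of FPKM the block averaged 0.875% in high-starch and 0.315% in low-starch roots. The value of -0.02 thus shows no equal level of the cultivars at 30 days. Without high-starch 30 d replicate 1 or 2 limma called 2 higher, and without replicate 3 it called 1 lower. At 100 days it called 2 higher (5.21% of all), the members ranked 18 and 75, and 0 lower (3.93% of all), with 17 higher (14.6% of all) and 2 lower (9.62% of all) at an unadjusted p under 0.05. It called 5 higher without high-starch 30 d replicate 2, 4 without replicate 3 of that group, and 1 without replicate 2 or 3 of 100 d in either cultivar, and it called 1 lower without high-starch 100 d replicate 3. At that age the libraries were separate in the upward direction for 31 members (19.2% of all), 9 of them in the block, and in the downward direction for 0 (17.1% of all). The block's median difference was 1.29 and that of the others 0.65. The member ranked 75 had low-starch means of 0.063, 0.8 and 1.41 FPKM at 30, 65 and 100 days. It reached the limit of 2 FPKM only through high-starch libraries, so its call at 100 days is descriptive. So did those ranked 64 and 69, also among the 17 higher at 100 days, and rank 64 was among the 7 higher at 30 days. The member ranked 56, among the 2 lower at 100 days, reached it only through low-starch libraries. The counts at an unadjusted p and of separate libraries are therefore descriptive at both ages.

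In the mean of the 3 ages, limma called 17 members (21.8%) higher in high-starch roots, where 11.1% of all unigenes were, and 2 lower (7.21% of all). Of the 17, 6 were in the block and 11 outside it. Libraries of 30 and 100 days, where the rule favours a spread small relative to the change, enter this mean and the standard errors of all cultivar comparisons. Members of the block are not independent, so the share is not read as a result about the members. Those ranked 64, 69 and 75 reached the limit of 2 FPKM only through high-starch libraries. The member ranked 56, called lower, did so only through low-starch libraries. Without low-starch 65 d and 100 d replicate 3 together the calls were 10 higher and 1 lower. Lower calls numbered 4 without replicate 1 of 65 d in either cultivar and 1 without high-starch 100 d replicate 1, low-starch 65 d replicate 3 or low-starch 100 d replicate 3. The worth of 1 read averaged 0.49 ± 0.38 (log2) in high-starch and 1.13 ± 0.40 in low-starch libraries (SD, n = 9 each), and its part in these calls was not tested. Within the block the averaged differences ran from -0.63 to 4.70 (log2).

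**Figure D5:**
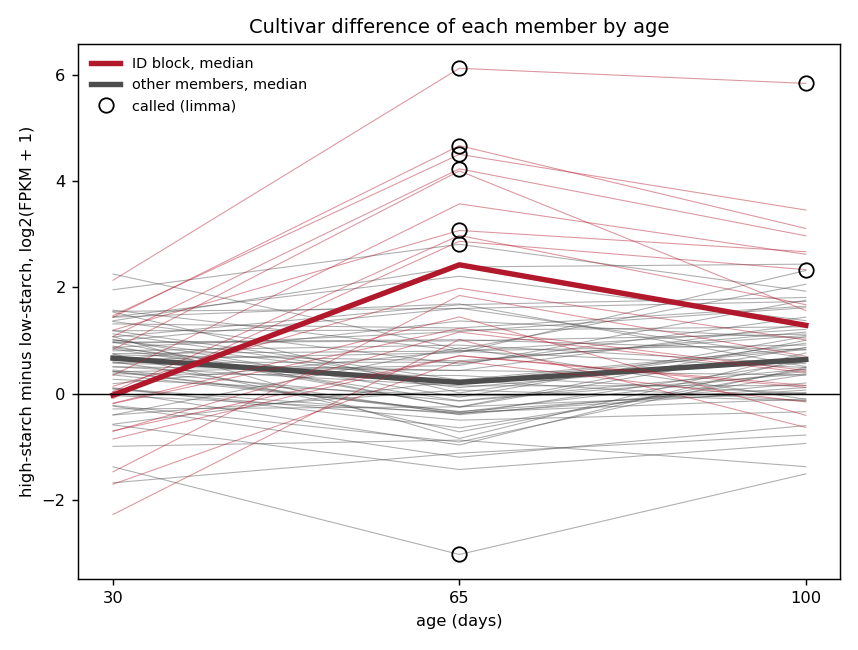
High-starch minus low-starch difference on the log2(FPKM + 1) scale of each of the 78 members (thin lines) at 30, 65 and 100 d, with the medians of the ID block and of the other members (thick lines). Circles mark differences called by limma, 7 at 65 d and 2 at 100 d; the block's median is -0.02, 2.43 and 1.29 at the 3 ages. The value at 30 d depends on high-starch 30 d replicate 2, where the block was far lower than in the other libraries of that group.

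Among the 60 members outside the block, differences from 30 to 100 days ran from 1.01 to 4.38 (log2) in high-starch and from 1.03 to 3.31 in low-starch roots. On the log2(FPKM + 1) scale 29 of them were at or past the midpoint at 65 days in high-starch roots and 43 in low-starch roots, and 19 were so in both. The member ranked 15, the second in abundance outside the block, had 115, 99.7 and 451 FPKM at 30 days, 542, 626 and 151 FPKM at 65 days and 827, 475 and 658 FPKM at 100 days in high-starch roots. In low-starch roots it had 67.6, 141 and 72.7 FPKM, 112, 301 and 191 FPKM and 363, 219.9 and 311 FPKM at the same ages. Its libraries of 65 days overlapped those of 30 days in both cultivars. The member ranked 78, the least abundant at 65 days, had 0.51, 0.6 and 0 FPKM at 65 days in high-starch roots and 1.8, 3.6 and 2.61 FPKM in low-starch roots. At 100 days it had 3.74, 2.24 and 6.6 FPKM in high-starch roots and 12.8, 5.85 and 7.56 FPKM in low-starch roots, levels at which single reads weigh in the value.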

How the data were processed

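RNA from roots was made into TruSeq stranded mRNA libraries after Trizol extraction and DNase treatment, per the labels' protocols. The authors deposited 1 table of FPKM values for 46840 unigenes in 18 libraries. Per the submitters' processing notes edgeR was used, in a role and version they leave out. Which assembler, aligner and counter were used, and whether libraries were scaled further, is not stated. All value columns matched 1 library each by label. The members and lists were chosen with earlier results of these data known.

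FPKM are not counts, so limma 3.58.1 (R 4.3.3) was fitted to log2(FPKM + 1) of the 32529 unigenes that reached 1 FPKM in 3 or more libraries. The model had the 6 groups, which left 12 residual degrees of freedom, and eBayes used a mean-variance trend. Differences on this scale understate changes of low transcripts. Relative depth came from the mode of pairwise ratios of low values, and 153 of 153 library pairs lay within 0.05 (log2) of the fit. The limma step, the depth step and the rule were tested on simulated data. Members were ranked by mean FPKM at 65 days; values are given for the first 6, IDs for the first 2, and the largest called cultivar difference at 65 days in each direction is described. Other members given by rank, and the grouping by ID, were chosen after their values were seen. The alternatives were other pseudocounts, filters, scalings, no trend, array weights, a replicate block and libraries left out. Figures and tables used Python 3.11.15, NumPy 2.4.6, pandas 2.3.3 and matplotlib 3.10.9.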

Additional observations from a re-analysis of the deposited data

How the results depend on the processing

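The absolute depth is unknown, so no counting interval is given, and levels of a few FPKM are the least certain. The number of members was 72 to 105 with pseudocounts of 0.1 or 0.5 or another scaling, 62 with a mean of at least 5 FPKM and 25 with a rise of at least 2 (log2). Leaving out single libraries gave 67 to 197 members, with 149, 151, 136, 197 and 148 without high-starch 30 d replicate 2 or 3, high-starch 100 d replicate 2, low-starch 30 d replicate 2 or low-starch 100 d replicate 2. The position of 65 days ran from 0.37 to 0.72 in the high-starch and from 0.41 to 0.75 in the low-starch cultivar without single libraries. With means of FPKM, chosen after seeing the data, it was 0.43 in high-starch and 0.70 in low-starch roots, and for the ID block in high-starch roots 0.45, against 0.81 on the log2 scale.

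The replicate block left 0 calls for the midpoint contrasts and for successive ages. It called 4 members higher at 65 days, against 6, and 1 higher at 30 days and 1 lower at 100 days, against 0 each. Correlations of deviations averaged 0.07 over 45 pairs of libraries with the same number (-0.46 to 0.62) and -0.035 over 90 other pairs. Of 18 libraries, 10 correlated best with their own number, a hint from the data that was not tested. Without any pairing some libraries would do so as well, since 45 pairs share a number and 90 do not. The labels give the numbers no shared source and not every pair exceeded 0.1, so the libraries were not treated as paired.

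Calls at 65 days without single libraries numbered 2 to 9 higher and 0 to 2 lower. Without low-starch 65 d and 100 d replicate 3 together there were 3 higher, and 2 were lower with a pseudocount of 0.5, quantile normalization, no trend or array weights. Array weights were chosen after seeing the data. At 30 days 2 and 1 were higher with pseudocounts of 0.1 and 0.5, 14 with array weights, and 1 was lower with 0.1; single libraries gave 0 to 2 higher and 0 to 1 lower. At 100 days 1 was higher with either pseudocount or without both low-starch libraries, 15 higher and 3 lower with array weights, and 1 to 5 higher and 0 to 1 lower without single libraries. In the mean of ages 26 were higher with array weights and 10 without both low-starch libraries; 4 were lower with a pseudocount of 0.1, quantile normalization or array weights, and 1 without both. Single libraries gave 13 to 24 higher and 1 to 4 lower.

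For 100 against 30 days the high-starch cultivar had 21 calls with array weights and 0 to 16 without single libraries. The low-starch cultivar had 1 with no trend, 9 with array weights and 0 to 1 without single libraries. The mean had 0 with a pseudocount of 0.1 or without both low-starch libraries, 1 with no filter or quantile normalization, 10 with a filter at 5 FPKM, 52 with array weights and 0 to 26 without single libraries. From 65 to 100 days array weights called 1 in the high-starch cultivar. Without single libraries the step from 30 to 65 days had 0 to 5 calls in the high-starch cultivar and 0 to 3 in the mean. The midpoint contrasts had 0 calls in each setting. At 65 days the cultivar difference of the member of rank 3 was -0.084 without low-starch 65 d replicate 3, alone or with 100 d replicate 3, and up to 1.49 without other single libraries. The cause of these changes was not tested.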
